A study of Homo sapiens with 192 samples.

Results

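The genes described here are 35 members of the Fanconi anemia and homologous recombination pathways, chosen by name from 58243 genes listed by Ensembl identifier in the deposited counts. Each symbol matched 1 identifier. The genes were chosen by pathway name and not by a threshold on a measured value, with earlier results of these data known. RNA sequencing of poly(A)-selected RNA was done on human colorectal cancer (CRC) cell lines. HCT116, HT29, LS174T and LS513 were each sampled under 2D growth and under 3D growth, which gave 8 groups of 3 libraries. The labels name no introduced allele and no treatment. Each line stands for the tumour of 1 person, and the labels describe 3D growth only as a 3D layer. HCT116 cells were kept in McCoy medium and the other lines in DMEM, so line and medium cannot be told apart where HCT116 differs. The labels do not state whether the 3 libraries of a group came from separate cultures, and p-values then measure the spread between these libraries, which may be technical.

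Fanconi proteins repair DNA crosslinks that block the replication fork. A core complex of FANCA, FANCB, FANCC, FANCE, FANCF, FANCG and FANCL, brought to DNA with the help of FANCM, attaches ubiquitin to the pair FANCD2 and FANCI, which licenses incision of the crosslink. The broken chromatid is then repaired by homologous recombination. Its ends are resected, BRCA1 with BARD1 and PALB2 bring in BRCA2, and strand exchange with the sister chromatid follows. These pathways work mainly in S and G2 phase, and the kinases ATM, ATR, CHEK1 and CHEK2 signal the damage to the cell cycle.

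The 24 libraries held 18723942 to 34277421 counts each (median 30777613). A floor of 3 counts was worth 0.0875 to 0.160 CPM, the count scaled to the library total after TMM normalization, which corrects that total for composition. All 35 genes passed the filter on low counts, which kept 19387 genes. Of 10 colorectal epithelium markers, all exceeded 3 counts in every library of HT29, LS513 and LS174T and 8 did in HCT116, where CDX1 and CDH17 did not. The summed level of 6 fibroblast markers was 0.341 to 22.1 CPM and that of 6 leukocyte and endothelial markers 2.16 to 92.4 CPM. The latter sum was higher in the 3D libraries of every line (in LS513, 62.2 to 92.4 against 18.1 to 20.5 CPM), while the leukocyte genes PTPRC and CD3E did not exceed 3 counts in all 3 libraries of any group. CD68 exceeded it in all 8 groups, CD79A and PECAM1 in both HT29 groups, and VWF in LS513 in 3D and both HCT116 groups. The part of these markers in the results was not tested.

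Growth in 3D was compared with growth in 2D within each line, to see whether the repair genes followed the growth condition. In all 4 lines the repair genes were lower in 3D. In HT29, 26 of 35 fell at an adjusted p under 0.05 (edgeR quasi-likelihood test, Benjamini-Hochberg adjustment over all tested genes), beside 19.6% of all tested genes that fell. In LS513, 29 fell beside 9.90% of all tested genes. HCT116 had 31 falls beside 12.3%, and LS174T had 19 beside 9.15%. The median log2 fold change of the 35 genes was -0.59 in HCT116, -0.53 in LS513, -0.51 in HT29 and -0.38 in LS174T, where the median of all tested genes was between 0.00 and 0.02. By the main edgeR fit (TMM scaling, all 24 libraries) no repair gene rose at an adjusted p under 0.05 in any line. Of all tested genes 21.1% rose in HT29, 16.8% in HCT116, 13.7% in LS513 and 13.1% in LS174T. At an unadjusted p under 0.05, 1 gene rose in LS174T and 0 in each of the others. DESeq2 called that same gene, RAD51B, higher in LS174T and called no other rise. By edgeR RAD51B also passed there with DESeq2 size factors (adjusted p 0.0484) and without technical replicate d (0.0432). The same held without HT29 3D replicate 3 or 4, LS513 3D replicate 1 or LS174T 3D replicate 3 (adjusted p 0.0434 to 0.0489 by edgeR).

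**Figure D1:**
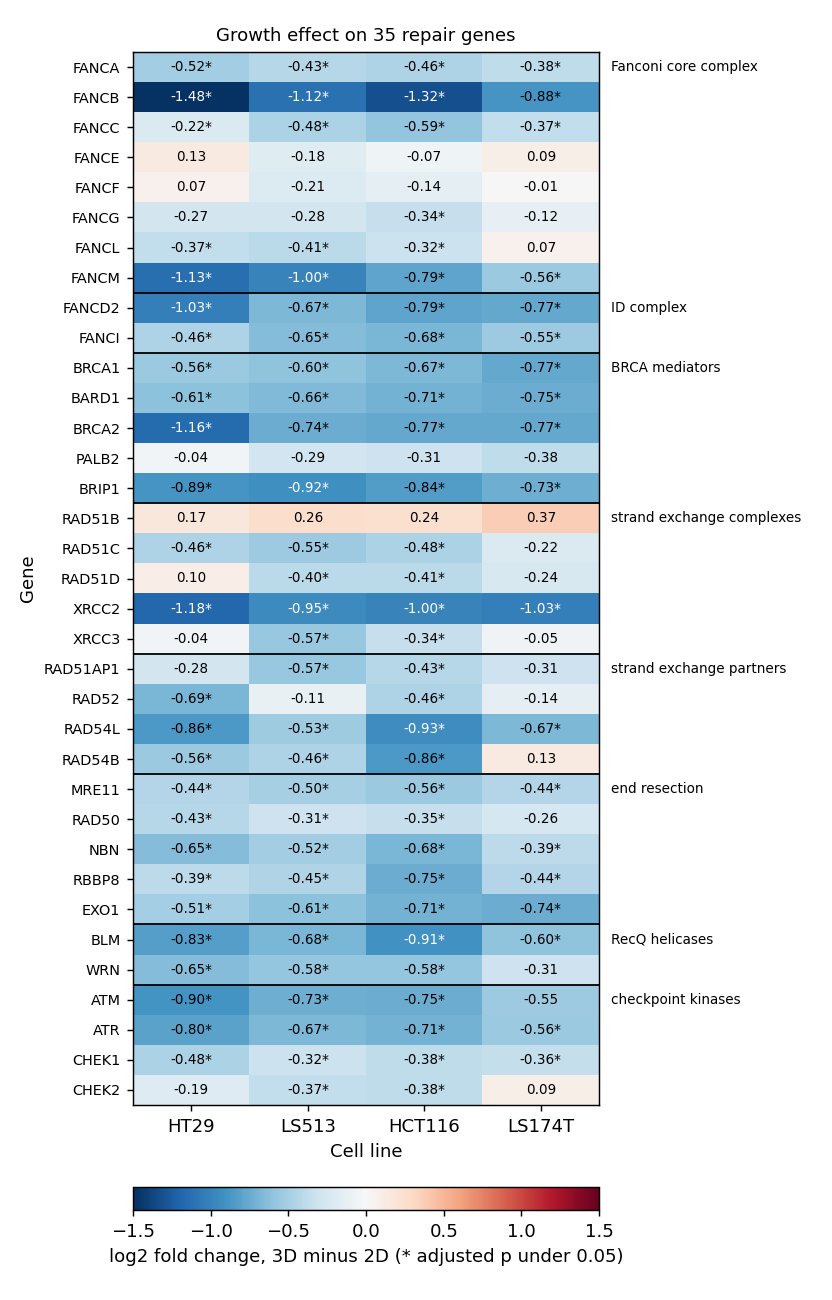
Log2 fold change of 3D over 2D for each of the 35 genes (vertical axis, grouped by role) in the 4 lines (horizontal axis), with a star where the adjusted p was under 0.05. Blue cells (lower in 3D) make up most of each column, FANCB has the darkest cells with -1.48 in HT29 and -1.32 in HCT116, and RAD51B is above 0 in all 4 lines without a star.

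A total of 19 genes fell in all 4 lines, a pattern that 2.46% of all tested genes showed. They were FANCA, FANCB, FANCC, FANCM, FANCD2, FANCI, BRCA1, BARD1, BRCA2, BRIP1, XRCC2, RAD54L, MRE11, NBN, RBBP8, EXO1, BLM, ATR and CHEK1. A further 6 genes fell in 3 lines, 5 in 2 lines and 1, FANCG, in 1 line. The 4 genes that fell in no line were FANCE, FANCF, PALB2 and RAD51B. Over the 4 lines 105 falls were called, and 70 of them stayed under every alternative normalization, filter, tool, blocking and left-out library. For 9 genes (FANCA, FANCD2, FANCI, BRCA1, BRCA2, XRCC2, RAD54L, EXO1 and BLM) this held in all 4 lines.

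Transcript length and base composition moved with the growth condition across all genes, and these values stand beside every fall reported here. Tested genes with a mean above 3 on the log2 CPM scale were split into 5 groups of nearly equal size by the length of their longest protein-coding transcript. The median log2 fold change went from 0.26 in the shortest group to -0.39 in the longest in HT29, from 0.15 to -0.19 in LS513, from 0.16 to -0.22 in HCT116 and from 0.26 to -0.31 in LS174T. From the lowest to the highest of 5 groups by GC content it went from -0.34 to 0.16 in HT29, from -0.20 to 0.14 in LS513, from -0.26 to 0.16 in HCT116 and from -0.18 to 0.15 in LS174T. Long transcripts and transcripts poor in GC were thus lower in 3D in each line. Among the 35 genes, Spearman's rho between the log2 fold change and length was -0.39 to -0.55 over the 4 lines, and with GC content 0.37 to 0.53. These correlations are across genes of the same libraries and are given as a description.

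**Figure D2:**
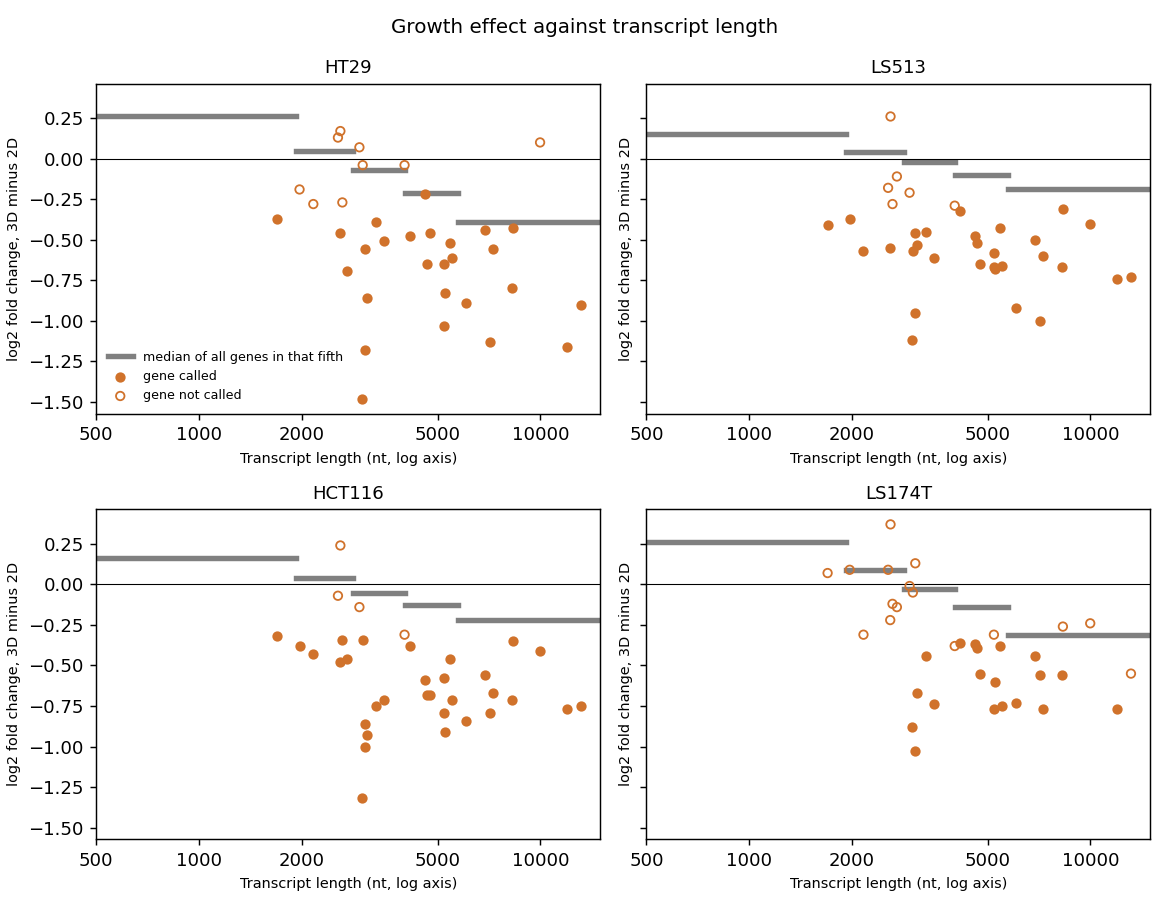
Log2 fold change of 3D over 2D (vertical axis) against transcript length in nucleotides (horizontal log axis) in each line. Points are the 35 repair genes, filled where called, and grey bars are the medians of all genes in each of 5 length groups, which fall from 0.26 to -0.39 in HT29, with most repair genes lying below the bars.

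The fit was repeated with offsets that remove the trend with length and GC content from each library, an alternative chosen after the data were seen. With these offsets 29 repair genes fell in HCT116 beside 18.2% of the 19322 genes with a known length, 27 in LS513 beside 15.0%, 25 in HT29 beside 21.8% and 18 in LS174T beside 11.7%. Their median log2 fold change was then -0.46, -0.44, -0.33 and -0.24 in that order. In HT29, 1 gene, RAD51D, rose with the offsets, beside 19.7% of all genes. Which genes were called also moved. MRE11 and RAD50 lost the call in every line in which they had it, FANCG fell in all 4 lines, and 13 genes in place of 19 fell in all 4, beside 3.85% of all genes. The part of length and GC content in the other falls was not tested further.

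Genes of the cell cycle also moved with growth. Of 40 S phase genes that are not among the 35, 31 fell in HCT116, 31 in LS513, 20 in HT29 and 20 in LS174T (1 rose in HT29 and 1 in LS174T), and the medians were -0.50, -0.45, -0.27 and -0.29 in that order. Of 54 G2/M phase genes, 35, 36, 48 and 18 fell in the same order, with medians of -0.43, -0.45, -0.67 and -0.22. Over libraries, the mean log2 CPM of the 35 repair genes was 5.16 to 5.21 in 2D and 4.60 to 4.72 in 3D for HT29, while that of the S phase genes was 6.38 to 6.48 and 6.06 to 6.14. In LS174T the repair genes went from 5.19 to 5.21 in 2D to 4.69 to 4.90 in 3D, and the S phase genes from 6.50 to 6.64 to 6.24 to 6.29. For both lists the 2D and 3D ranges did not overlap in these lines, nor in LS513 and HCT116. In bulk samples, fewer cells in a phase and less RNA per cell cannot be told apart, and the part of the cell cycle in the falls was not tested.

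Among the core complex genes, FANCB had the largest decrease in all 4 lines. FANCB, a core subunit encoded on chromosome X (14835961 to 14873069, minus strand, GRCh38), was the lowest of the 35 genes per length, with a mean of 1.71 CPM per kb over the 2D groups. In HT29 its level was 4.42, 4.61 and 6.68 CPM in 2D and 1.45, 1.76 and 2.39 CPM in 3D, a log2 change of -1.48 (SE 0.28, adjusted p 2.3e-04 by edgeR). In HCT116 it was 5.77, 6.10 and 3.50 CPM in 2D and 1.90, 1.57 and 2.71 CPM in 3D (-1.32, SE 0.27). All 3D libraries were below all 2D libraries in both lines. In LS513 FANCB changed by -1.12 (SE 0.27) and in LS174T by -0.88 (SE 0.26, adjusted p 0.0202). The LS174T call was lost without 3D replicate 2 (log2 change -0.68, adjusted p 0.119) and also without 2D replicate 1 (0.0555) or 2 (0.0694).

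FANCM, the DNA translocase that anchors the core complex, fell by 1.13 on the log2 scale in HT29 (SE 0.20), by 0.79 in HCT116 (SE 0.19) and by 0.56 in LS174T (SE 0.19). In LS513 its levels were 12.7, 12.5 and 10.3 CPM in 2D and 5.14, 5.15 and 7.42 CPM in 3D, without overlap, a fitted level of 49.9% of that in 2D (adjusted p 5.7e-04). In HCT116 the conditions overlapped, with 16.9, 18.4 and 10.7 CPM against 8.11, 7.16 and 11.4 CPM. The LS174T call (adjusted p 0.0365) was lost when any of the 6 libraries of that line was left out, and its log2 change was -0.22 with the length and GC offsets. FANCA fell by 0.38 to 0.52 on the log2 scale over the lines, and 23.6% of its exonic length lies opposite other genes. FANCC fell in all 4, but its call in HT29 (-0.22, adjusted p 0.0459) was lost under 30 of 33 alternatives.

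FANCL, the ubiquitin ligase of the complex (19.7% of its exonic length lies opposite other genes), fell in HT29 (-0.37), LS513 (-0.41) and HCT116 (-0.32) and had 0.07 in LS174T. FANCE had log2 changes of 0.13, -0.18, -0.07 and 0.09, and FANCF of 0.07, -0.21, -0.14 and -0.01, in the order HT29, LS513, HCT116 and LS174T. FANCG passed the test in HCT116 (-0.34, adjusted p 0.0381) and had -0.27, -0.28 and -0.12 in HT29, LS513 and LS174T. With the length and GC offsets FANCE also fell, in LS513 (-0.37) and HCT116 (-0.29).

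FANCD2 and FANCI, the pair that the core complex modifies, fell in every line. In HT29 FANCD2 (chromosome 3, 10026414 to 10101930, plus strand) was at 51.2, 48.3 and 48.2 CPM in 2D and 23.4, 24.3 and 24.5 CPM in 3D, a log2 change of -1.03 (SE 0.10, adjusted p 6.2e-08 by edgeR). In LS513 it was at 126, 119 and 120 CPM against 74.7, 67.0 and 88.0 CPM (-0.67, SE 0.10). In HCT116 it was at 112, 116 and 91.2 CPM against 63.3, 63.0 and 58.7 CPM (-0.79, SE 0.10). The growth conditions did not overlap in these lines. In LS174T FANCD2 went from 92.7, 81.6 and 85.6 CPM to 49.5, 48.8 and 54.2 CPM (-0.77, SE 0.10, adjusted p 7.4e-06), again without overlap. FANCI was the highest of the 35 genes per length, at 57.2 CPM per kb over the 2D groups, and fell by 0.46 to 0.68 on the log2 scale.

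BRCA1, BARD1, BRCA2 and BRIP1 fell in all 4 lines, and PALB2, which joins BRCA1 to BRCA2, passed the test in none. BRCA1 (chromosome 17, 43044295 to 43170245, minus strand) is a ubiquitin ligase with BARD1 that acts in resection and in recruiting BRCA2. Its levels in LS174T were 103, 97.3 and 100.2 CPM in 2D and 61.8, 44.5 and 70.1 CPM in 3D, a log2 change of -0.77 (SE 0.15, adjusted p 8.7e-04 by edgeR). In HT29 it was at 84.8, 79.5 and 86.1 CPM against 53.3, 57.2 and 59.9 CPM (-0.56, SE 0.15). No 3D library reached the 2D levels in either line. In LS513 BRCA1 went from 90.8, 90.8 and 93.1 CPM to 59.4, 51.3 and 70.3 CPM (-0.60, SE 0.15), and in HCT116 from 84.2, 87.3 and 59.7 CPM to 39.9, 52.2 and 53.1 CPM (-0.67, SE 0.15). Replicate 3 of HCT116 in 2D was the low library of its group and was still above the 3D libraries. With the length and GC offsets the log2 change of BRCA1 was -0.50 in LS174T, -0.46 in HCT116, -0.42 in LS513 and -0.21 in HT29, all past the test.

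BRCA2 (chromosome 13, 32315474 to 32400266, plus strand), a mediator of strand exchange, had one of the 3 largest decreases in HT29 and in LS174T. In HT29 its levels were 63.1, 65.2 and 77.6 CPM in 2D and 27.7, 34.1 and 30.4 CPM in 3D (-1.16, SE 0.15, adjusted p 2.5e-06 by edgeR). In LS513 they were 63.2, 63.6 and 57.3 CPM against 33.3, 32.3 and 44.8 CPM (-0.74, SE 0.15). The conditions were apart in both lines. In HCT116 BRCA2 went from 20.5, 20.5 and 13.5 CPM to 11.4, 11.3 and 9.26 CPM (-0.77, SE 0.15), and in LS174T from 26.1, 26.9 and 26.5 CPM to 15.3, 13.7 and 17.4 CPM (-0.77, SE 0.15). Its transcript of 11986 nt is the second longest of the 35. With the offsets its log2 change was -0.58, -0.41, -0.34 and -0.39 in the order HT29, LS513, HCT116 and LS174T, all past the test. BRIP1, the helicase partner of BRCA1, fell by 0.73 to 0.92 on the log2 scale and BARD1 by 0.61 to 0.75. BARD1 did not pass in HT29 with the offsets (-0.25, adjusted p 0.0653).

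**Figure D3:**
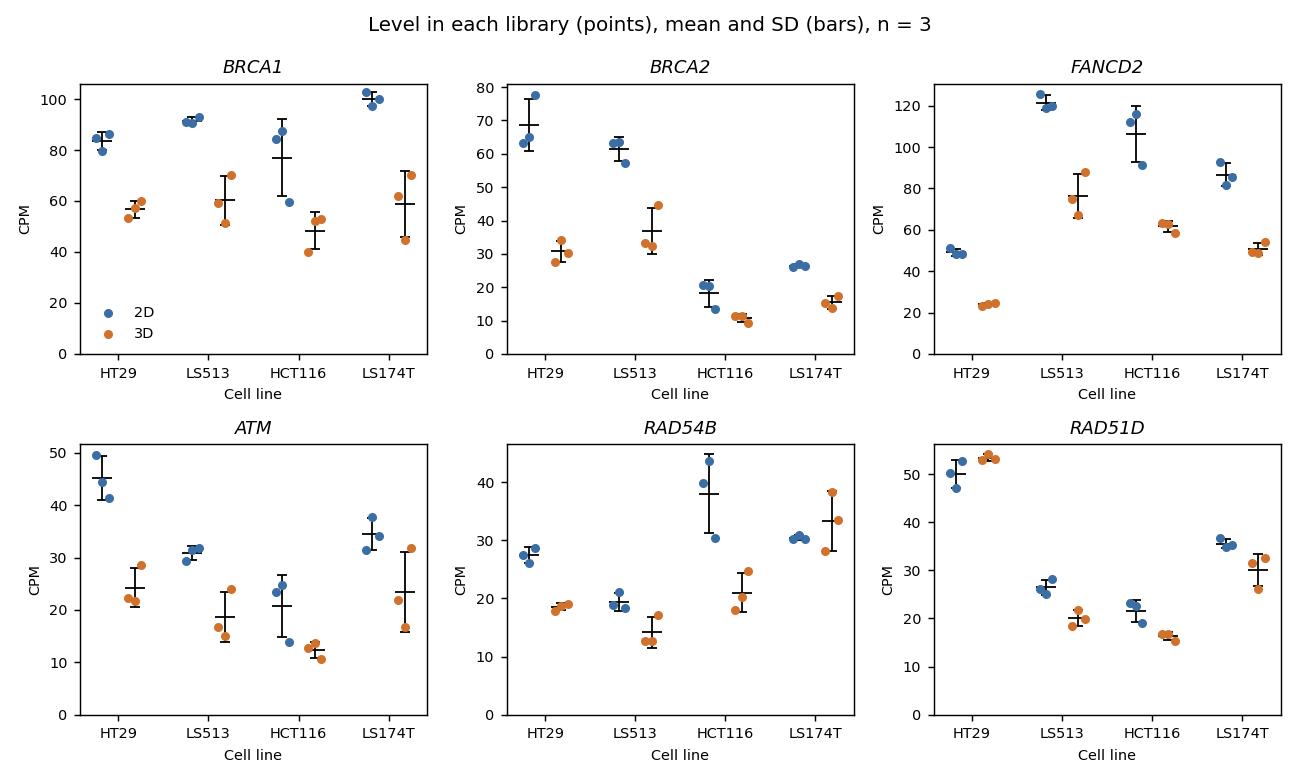
Level in CPM (vertical axis) of 6 genes in each library of the 4 lines (horizontal axis), in 2D (blue) and 3D (orange), with the mean and SD of 3 libraries as bars. BRCA1, BRCA2 and FANCD2 are lower in every 3D library than in every 2D library of the same line, while RAD54B in LS174T (28.2 to 38.4 CPM in 3D) and RAD51D in HT29 (52.8 to 54.2 CPM in 3D) do not fall.

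The genes RAD51B, RAD51C, RAD51D, XRCC2 and XRCC3, whose proteins form complexes that act in strand exchange, did not all pass the test in any line. XRCC2 (chromosome 7, 152644779 to 152676165, minus strand) was among the 3 largest decreases in every line. Its levels in LS174T were 33.3, 32.2 and 34.7 CPM in 2D and 17.0, 11.4 and 20.5 CPM in 3D (-1.03, SE 0.18, adjusted p 3.1e-04 by edgeR). In HT29 they were 36.3, 39.4 and 36.7 CPM against 12.4, 20.1 and 17.3 CPM (-1.18, SE 0.18). The 3D libraries were below the 2D libraries in both lines. XRCC2 changed by -0.95 in LS513 (SE 0.18) and stood at 50.1% of its 2D level in HCT116 (adjusted p 2.9e-04), and with the offsets its log2 changes were -1.08, -0.89, -0.91 and -1.01 in the order HT29, LS513, HCT116 and LS174T. RAD51C fell in HT29, LS513 and HCT116 by 0.46 to 0.55 on the log2 scale, and in LS174T it had -0.22 (adjusted p 0.105). RAD51B stood at 3.32 to 8.52 CPM in all libraries, with log2 changes of 0.17, 0.26, 0.24 and 0.37. In LS174T it was at 4.58, 4.98 and 4.53 CPM in 2D and 5.92, 6.64 and 5.68 CPM in 3D, without overlap (adjusted p 0.0528 by edgeR and 0.0308 by DESeq2). XRCC3 fell in LS513 (-0.57) and HCT116 (-0.34), and 76.7% of its exonic length lies opposite exons of KLC1. The library kit marks strand, but whether counting used strand is not stated, so its values and those of other genes with exons opposite another gene are uncertain.

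RAD54L, a motor protein of strand exchange on chromatin, fell by 0.93 on the log2 scale in HCT116, 0.86 in HT29, 0.67 in LS174T and 0.53 in LS513 (SE 0.11 in each). Of its exonic length 25.1% lies opposite exons of LRRC41. In HCT116 it went from 56.4, 52.2 and 39.9 CPM to 27.2, 26.4 and 24.4 CPM. The low 2D library was again replicate 3, and the conditions did not overlap. RAD52, an annealing protein, fell in HT29 (-0.69) and HCT116 (-0.46) and had -0.11 in LS513 and -0.14 in LS174T. RAD51AP1, a partner in strand exchange, fell in LS513 (-0.57) and HCT116 (-0.43) and had -0.28 in HT29 and -0.31 in LS174T.

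The end resection genes fell in nearly every line. MRE11, RAD50 and NBN form the complex that first binds and trims a broken end, RBBP8 starts its nuclease, and EXO1 extends the resection. MRE11 fell by 0.44 to 0.56, NBN by 0.39 to 0.68, RBBP8 by 0.39 to 0.75 and EXO1 by 0.51 to 0.74 on the log2 scale over the 4 lines. The MRE11 libraries of HCT116 overlapped between the conditions (9.24 to 14.0 CPM in 2D and 7.05 to 9.84 CPM in 3D). RAD50 fell in HT29, LS513 and HCT116 by 0.31 to 0.43 and had -0.26 in LS174T (adjusted p 0.1000). With the offsets the log2 changes of MRE11 were -0.03 to -0.28 and those of RAD50 -0.12 to 0.08, none past the test. In RAD50, 79.7% of the exonic length also belongs to the gene AC116366.3 on the same strand, so reads could be split or left out in the authors' counting. EXO1 kept its fall with the offsets in each line (-0.38 to -0.68). The NBN call in LS174T (adjusted p 0.0400) was lost under 12 of 33 alternatives, 8 of them a left-out library, and with the offsets its log2 change there was -0.20 (adjusted p 0.0538).

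The helicase BLM, which dissolves recombination intermediates, fell by 0.60 to 0.91 on the log2 scale. WRN, a related helicase, fell in HT29 (-0.65), LS513 (-0.58) and HCT116 (-0.58) and had -0.31 in LS174T. The damage kinase ATM (chromosome 11, 108222484 to 108369102, plus strand) has the longest transcript of the 35, at 13147 nt. In HT29 it was at 49.7, 44.5 and 41.5 CPM in 2D and 22.4, 21.8 and 28.6 CPM in 3D (-0.90, SE 0.21, adjusted p 0.0014 by edgeR). In LS513 it was at 29.4, 31.5 and 31.9 CPM against 16.8, 15.1 and 24.1 CPM (-0.73, SE 0.21, adjusted p 0.0127), and the groups did not overlap in these lines. In HCT116 the levels were 23.4, 24.8 and 14.0 CPM against 12.7, 13.7 and 10.6 CPM (-0.75, SE 0.21, adjusted p 0.00991). In LS174T they were 31.6, 37.7 and 34.2 CPM against 21.9, 16.7 and 31.8 CPM, which overlapped (-0.55, SE 0.21, adjusted p 0.0565). The ATM call in HT29 was kept under all 33 alternatives. In LS513 and HCT116 passing the test turned on single libraries, and in LS174T on libraries and settings. LS174T passed without its 3D replicate 3 (-0.83, adjusted p 0.00446) and by DESeq2 (adjusted p 0.0430). By edgeR it also passed with library totals (0.0385), no filter on low counts (0.00146) and a replicate block (0.0395). Without LS513 3D replicate 3 or HCT116 2D replicate 3 the LS174T values were 0.0455 and 0.0322. HCT116 did not pass without its 2D replicate 1 or 2 (adjusted p 0.0538 and 0.0674), and LS513 did not pass without its 3D replicate 1 or 2 (adjusted p 0.0632 and 0.0865). With the offsets ATM changed by -0.39, -0.47, -0.38 and -0.20 in the order HT29, LS513, HCT116 and LS174T, the last not past the test. ATR, the kinase of stalled forks, fell by 0.56 to 0.80 and its target CHEK1 by 0.32 to 0.48. With the offsets ATR did not pass in LS174T (-0.21, adjusted p 0.140) nor CHEK1 in LS513 (-0.18, adjusted p 0.0634), and 16.4% of the exonic length of ATR lies opposite another gene. CHEK2, the target of ATM, fell in LS513 (-0.37) and HCT116 (-0.38), with -0.19 in HT29 and 0.09 in LS174T.

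The promoters of the genes with the largest mean decrease among those that fell in all 4 lines were searched for the words of cell cycle regulators. The search covered 250 bases before the RefSeq start (GRCh38.p14) on both strands. The E2F motif was searched as 4 words, namely TTCCCGC, with its variants TTCGCGC, then TTGCCGC, and also TTGGCGC. The cell cycle homology region (CHR) was searched as TTTGAA, and the NF-Y motif as CCAAT. Of the 35 genes 31 had a promoter in the table, and FANCI, RAD54B, NBN and WRN did not. An E2F word was found in 9 of 31 (29%) beside 11% of all 27305 promoters, CHR in 3 (9.68%) beside 13.6%, and CCAAT in 13 (41.9%) beside 33%. FANCB, XRCC2, BRCA2 and FANCD2 held none of these words in this window. FANCM held CCAAT 2 times, and BRIP1 held it 3 times with 1 CHR word, and these letters are in capitals (as their reverse complement where the match is on the other strand). FANCB is shown as the gene with the largest mean decrease. A match is a description and not a binding site, and a missing match says only that the letters are not in this window.
FANCM, chr14:45135680-45135929, plus strand: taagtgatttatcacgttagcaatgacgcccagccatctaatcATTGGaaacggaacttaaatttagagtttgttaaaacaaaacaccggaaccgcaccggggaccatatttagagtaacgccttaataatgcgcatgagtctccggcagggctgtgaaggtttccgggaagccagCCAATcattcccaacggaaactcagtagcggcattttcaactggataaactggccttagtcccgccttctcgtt
BRIP1, chr17:61863529-61863778, minus strand: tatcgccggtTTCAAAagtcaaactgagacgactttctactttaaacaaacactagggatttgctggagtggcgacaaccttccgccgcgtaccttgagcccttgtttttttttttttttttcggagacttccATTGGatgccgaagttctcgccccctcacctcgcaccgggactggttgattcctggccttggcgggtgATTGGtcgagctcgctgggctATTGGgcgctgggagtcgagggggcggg
FANCB, chrX:14873070-14873319, minus strand: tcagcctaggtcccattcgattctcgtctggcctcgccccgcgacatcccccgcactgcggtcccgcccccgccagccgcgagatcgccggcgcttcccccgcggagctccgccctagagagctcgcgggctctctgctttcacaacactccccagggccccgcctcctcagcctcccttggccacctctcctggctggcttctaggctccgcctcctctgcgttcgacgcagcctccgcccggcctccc

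The growth effect was then compared between the lines by a test of the interaction. It passed for 2 of 35 genes, RAD54B and RAD51D, beside 17.1% of all tested genes. RAD54B is a relative of RAD54L. It was at 30.2, 31.0 and 30.3 CPM in 2D and 28.2, 38.4 and 33.4 CPM in 3D in LS174T, which overlap (log2 change 0.13, SE 0.14). In HCT116 it went from 39.9, 43.7 and 30.5 CPM to 18.1, 20.3 and 24.7 CPM (-0.86, SE 0.14). HCT116 fell and LS174T did not. The difference of the 2 effects was -0.99 on the log2 scale (SE 0.20, adjusted p 0.00354 by edgeR), that between HT29 and LS174T was -0.69 (SE 0.20, adjusted p 0.0376), and the interaction over the 4 lines had an adjusted p of 0.00642 (0.0699 with a replicate block). The LS513 effect (-0.46) was not told apart from that of LS174T (difference -0.59, SE 0.20, adjusted p 0.122). RAD54B shares 59.1% of its exonic length with FSBP on the same strand, so its counts are uncertain where reads could belong to either gene.

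RAD51D, of the strand exchange complexes, was at 50.2, 47.1 and 52.8 CPM in 2D and 52.8, 54.2 and 53.2 CPM in 3D in HT29 (log2 change 0.10, SE 0.10, adjusted p 0.460). In LS513 it went from 26.1, 25.1 and 28.2 CPM to 18.4, 21.8 and 19.9 CPM (-0.40, SE 0.10), and in HCT116 from 23.1, 22.5 and 19.0 CPM to 16.7, 16.8 and 15.3 CPM (-0.41, SE 0.10). It fell in LS513 and HCT116 and not in HT29. The HT29 effect differed from that in LS513 by 0.50 (SE 0.14, adjusted p 0.0186 by edgeR) and from that in HCT116 by 0.50 (SE 0.14, adjusted p 0.0256). In LS174T RAD51D had -0.24 (adjusted p 0.0768), and the difference from HT29 was 0.34 (SE 0.14, adjusted p 0.159). The interaction had an adjusted p of 0.0289, and 0.0629 without HT29 2D replicate 2, 0.0510 without HCT116 2D replicate 1 and 0.0520 without LS513 2D replicate 3. It was 0.238 with a replicate block and 0.0800 with no filter on low counts. With the length and GC offsets RAD51D rose in HT29 by 0.40 (adjusted p 0.00102). Its longest transcript has 9988 nt, and 8.87% of its exonic length is shared with other genes on the same strand. CHEK2 (adjusted p 0.0551) and XRCC3 (adjusted p 0.0615) were the next genes in the interaction test. The number of genes called was unstable, from 1 to 6 when 1 library was left out, and the share of all tested genes is not given for those fits.

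The lines were compared with each other in 2D, where a gene was called at an adjusted p under 0.05 and a difference of at least 1 on the log2 scale. The median difference between the highest and the lowest line was 0.82 on the log2 scale for the 35 genes and 1.59 for all tested genes. These medians are not of like sets. The filter also kept genes with few or no counts in some lines, which widens their range, while each of the 35 had at least 44 counts in every library. Between HT29 and LS513, 3 genes were called, FANCE, FANCD2 and BARD1, all lower in HT29, beside 32.8% of all tested genes. Between HT29 and HCT116, 12 were called, 6 of them lower in HT29, beside 40.5%. Between HT29 and LS174T 3 were called beside 37.3%, between LS513 and HCT116 7 beside 40.5%, between LS513 and LS174T 3 beside 30.6%, and between HCT116 and LS174T 2 beside 39.4%. BRCA1 differed by 0.40 between its highest and lowest line, FANCB by 0.07 and CHEK2 by 0.15.

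**Figure D4:**
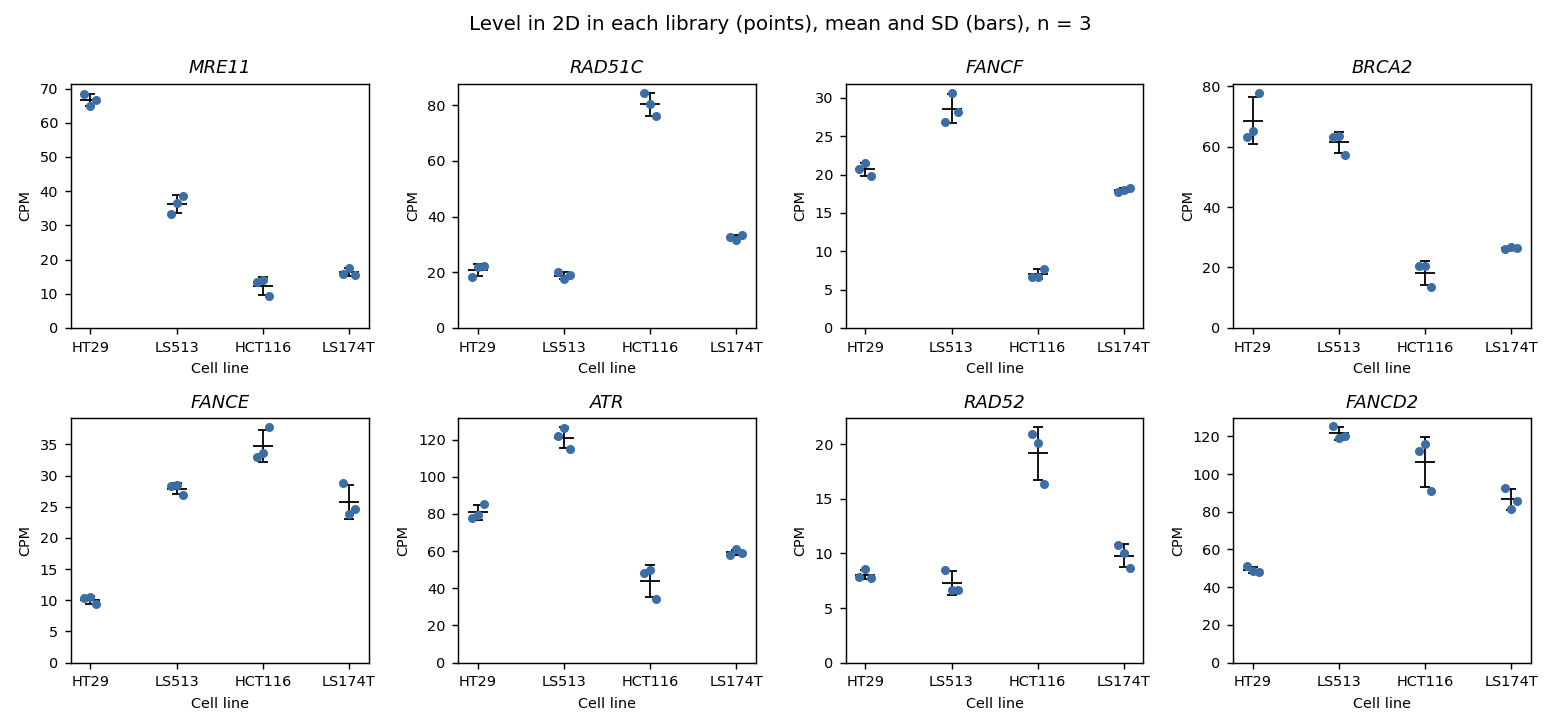
Level in 2D in CPM (vertical axis) of the 8 genes with the widest difference between lines, in each of 3 libraries of the 4 lines (horizontal axis), with mean and SD. MRE11 is highest in HT29 (64.9 to 68.5 CPM) and lowest in HCT116 (9.24 to 14.0 CPM), and RAD51C is highest in HCT116 (76.3 to 84.4 CPM).

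MRE11 had the widest difference. In 2D it was at 68.5, 64.9 and 66.7 CPM in HT29, at 33.4, 36.4 and 38.7 CPM in LS513, at 15.8, 17.7 and 15.6 CPM in LS174T and at 13.3, 14.0 and 9.24 CPM in HCT116. No 2 lines overlapped. HCT116 and LS174T, both known as microsatellite instable lines, were the low pair. MRE11 was 5.47-fold higher in HT29 than in HCT116 (log2 difference 2.45, SE 0.14, adjusted p 1.7e-13 by edgeR) and 4.08-fold higher than in LS174T. The same order held in 3D, where the difference between the highest and lowest line was 2.59 on the log2 scale. The low HCT116 library in 2D, replicate 3, tilted against long transcripts. Its longest minus shortest length group was -0.36 on the log2 scale, relative to the mean of its group. It was also the lowest HCT116 library in 2D for BRCA2 and ATR. Values with the length and GC offsets are not given for the line differences.

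BRCA2 followed the same split. It was 3.77-fold higher in HT29 than in HCT116 (log2 difference 1.91, SE 0.15, adjusted p 7.6e-11 by edgeR) and 2.59-fold higher than in LS174T. LS513 was 3.37-fold above HCT116 and 2.32-fold above LS174T. HT29 and LS513 overlapped (63.1 to 77.6 and 57.3 to 63.6 CPM) and differed by 0.16 (SE 0.14, adjusted p 0.354). For ATR, HCT116 and LS174T were again the low pair, but LS513 was above HT29. ATR was at 121.7, 126.5 and 115 CPM in LS513 and at 77.9, 79.4 and 85.1 CPM in HT29. In LS174T it was at 58.2, 60.9 and 58.8 CPM and in HCT116 at 48.4, 49.9 and 34.2 CPM. It was 2.74-fold higher in LS513 than in HCT116 and 2.04-fold higher than in LS174T. The 4 lines did not overlap for ATR.

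HCT116 stood apart for RAD51C, RAD52 and FANCF. RAD51C (chromosome 17, 58692573 to 58735611, plus strand) was at 84.4, 80.4 and 76.3 CPM in HCT116, at 32.7, 31.5 and 33.4 CPM in LS174T, at 18.2, 21.9 and 22.3 CPM in HT29 and at 20.1, 17.4 and 18.9 CPM in LS513. HT29 and LS513 overlapped (difference 0.15, SE 0.10, adjusted p 0.214), and HCT116 was 4.28-fold higher than LS513 (log2 difference -2.10 for LS513 minus HCT116, adjusted p 5.2e-15 by edgeR). RAD52 was at 16.4 to 21.0 CPM in HCT116 and at 6.62 to 10.7 CPM in the other lines. Its difference between HCT116 and LS174T (0.97, SE 0.16) was under the fold cutoff and was not called. FANCF, an intronless gene on chromosome 11 (22622890 to 22625841, minus strand), was the reverse. It was at 6.65, 6.70 and 7.73 CPM in HCT116 and at 17.8 to 30.7 CPM in the other lines, and LS513 was 4.07-fold above HCT116.

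HT29 stood apart for FANCE and FANCD2. FANCE was at 10.3, 10.5 and 9.37 CPM in HT29 and at 23.9 to 37.8 CPM in the other lines, with 3.45-fold more in HCT116 (log2 difference -1.79 for HT29 minus HCT116, SE 0.13, adjusted p 1.4e-11 by edgeR). LS513 and LS174T did not differ beyond their spread for FANCE (0.11, SE 0.12, adjusted p 0.441). FANCD2 in HT29 was at 48.2 to 51.2 CPM, and at 81.6 to 126 CPM in the other lines. Its difference for HT29 minus LS174T (-0.81, SE 0.10) was under the fold cutoff and was not called. LS513 and HCT116, the highest pair, differed by 0.19 (SE 0.10, adjusted p 0.0826). The lowest line in 2D was the lowest in 3D for each of the 8 genes except RAD52, where HT29 took that place in 3D.

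Of 49 further tested Fanconi and recombination genes, 19 fell and 5 rose in HT29, 22 fell and 2 rose in LS513, 19 fell and 4 rose in HCT116, and 13 fell and 3 rose in LS174T. Between 25 and 33 did not pass in a line. Of all tested genes, 9.15% to 19.6% fell and 13.1% to 21.1% rose over the lines. Their median log2 fold changes were -0.21, -0.22, -0.20 and -0.11. By the smallest p in each line, MDC1, an adaptor at breaks, fell in HT29 from 93.8 ± 5.11 to 48.9 ± 4.19 CPM (SD, n = 3 libraries, log2 change -0.94, edgeR adjusted p 5.1e-07). TIMELESS, a replication fork protein, fell by 0.67 in LS513 and by 0.65 in LS174T on the log2 scale, and USP1, which removes ubiquitin from FANCD2, fell by 0.91 in HCT116. These genes kept their falls with the offsets.

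Of 18 genes of end joining and of the control of resection, 8 fell and 2 rose in HT29, 6 fell in LS513, 6 fell and 1 rose in HCT116, and 5 fell and 1 rose in LS174T, beside 19.6% of all tested genes that fell and 21.1% that rose in HT29, 9.90% that fell in LS513, 12.3% that fell in HCT116 and 9.15% that fell in LS174T. The medians were -0.19, -0.26, -0.26 and -0.16. PRKDC, the kinase of non-homologous end joining, fell in HT29 from 987 ± 46.8 to 422 ± 30.1 CPM (SD, n = 3 libraries, log2 change -1.22, edgeR adjusted p 1.6e-06). PARP1 fell by 0.55 on the log2 scale in LS513. POLQ, the polymerase of theta-mediated end joining, fell by 0.94 in HCT116 and by 1.05 in LS174T. With the offsets PRKDC changed by -0.83 in HT29 and POLQ by -0.68 in HCT116 and -0.74 in LS174T, all past the test.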

How the data were processed

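The authors sequenced stranded libraries of poly(A)-selected RNA as single reads, trimmed adapters (Trim Galore 0.4.1 per the labels), aligned the reads with STAR, removed reads that aligned more than once and counted them per gene with HTSeq-count 0.5.3. They deposited raw counts per gene, without normalization, for each technical replicate. The submitters' processing notes name build hg19 and the methods name an Ensembl annotation of a later build; 57980 of 58243 identifiers are in GENCODE 29, and positions, lengths and overlaps come from GENCODE 29 on GRCh38. The strand option of the counting is not given in the sources used here. Technical replicates were summed, since they differed by no more than counting error (median chi-square per degree of freedom 0.905 to 0.934). The library of HT29 in 3D numbered replicate 4 was used with 7 of 8 technical replicates, and technical replicate d of it was not analysed here. The columns of other samples numbered 0.

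Summed counts went into edgeR 4.0.16 (R 4.3.3). Genes were filtered by filterByExpr and scaled by TMM, and the quasi-likelihood model (robust option) had a coefficient for each of 8 groups over the 24 libraries. Tests were two-sided, with Benjamini-Hochberg adjustment over 19387 genes, and the pipeline was tested on simulated data. The floor of 3 counts covers counting error only, and the reads carry no molecular identifiers. The SE of each log2 change came from the quasi-likelihood test and includes the spread between libraries. The 35 genes and the other lists were chosen with earlier results of these data known. Named in full were BRCA1, BRCA2, FANCD2 and ATM, the 3 largest decreases per line, genes past the interaction test, the 8 widest differences between lines, the gene with the smallest p per line of the 2 other repair lists, and promoters of genes that fell in all 4 lines; others were named by role. Alternatives were DESeq2 1.42.0 and its size factors, library totals, no filter, a replicate block, fits of the compared groups alone, leaving out technical replicate d or each library, and other call rules. Added after the data were seen were length and GC offsets (mgcv 1.9.3) and leaving out both libraries whose counts tilted most against long transcripts.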

Additional observations from a re-analysis of the deposited data

Results flagged for a closer look

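RAD54B and RAD51D had a growth effect that differed between the lines by the interaction test of edgeR, with adjusted p-values of 0.00642 and 0.0289. For RAD54B the interaction kept an adjusted p under 0.05 under every alternative except the replicate block (0.0699). For RAD51D it was 0.0800 with no filter on low counts and 0.238 with the replicate block, and it was over 0.05 without HT29 2D replicate 2, HCT116 2D replicate 1 or LS513 2D replicate 3. No group had 4 libraries or more, so single libraries were not screened for outliers.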

How the results depend on the processing

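The counts of genes that fell in 3D stayed within 1.5 times of 26, 29, 31 and 19 in HT29, LS513, HCT116 and LS174T under each alternative except a call rule of at least 0.5 on the log2 scale, which left 19 in LS513 and 20 in HCT116 by construction. Leaving out 1 library gave 22 to 26 in HT29, 21 to 31 in LS513, 24 to 32 in HCT116 and 14 to 23 in LS174T. No called fold change reversed, and 131 changes of sign were of values that did not pass the test. Scaling by library totals alone put the median of all genes at 0.02, -0.09, -0.04 and -0.08 in the 4 lines, against 0.00, 0.00, 0.01 and 0.02.

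The interaction count of 2 was the least stable. It was 4 by library totals, 5 by the DESeq2 test and 6 with the length and GC offsets. Without both libraries that tilted most against long transcripts it was 7. Relative to their group means, their longest minus shortest length group was -0.61 (LS174T 3D replicate 2) and -0.36 (HCT116 2D replicate 3). LS174T 3D replicate 3 had 0.46 on the same log2 scale and was kept. The interaction count ranged from 1 to 6 with 1 library left out. It was 1 without HT29 2D replicate 2 or LS513 2D replicate 3, and 4 without HCT116 3D replicate 3 or LS174T 3D replicate 3. It was 5 without LS174T 3D replicate 2 or HCT116 2D replicate 3, and 6 without HT29 3D replicate 1. The share of all tested genes is not given for these settings, so the counts cannot be set beside it. The cause was not tested. A fit of the compared groups alone is the same fit for this test and gave no value of its own.

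With the replicate block, 23, 27, 27 and 18 genes fell (beside 13.4%, 7.36%, 9.39% and 6.99% of all tested genes) and the interaction count was 0 by edgeR (4 at an unadjusted p under 0.05), beside 8.76%. Same-numbered libraries did not deviate together (correlations -0.23 to 0.35 over 11 pairs, with 3 of 11 matching their own number best), so the numbers were not taken as pairs.

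Without the fold cutoff the line comparisons in 2D called 20 (HT29 and LS513), 24 (HT29 and HCT116), 19 (HT29 and LS174T), 26 (LS513 and HCT116), 19 (LS513 and LS174T) and 19 (HCT116 and LS174T) genes by construction, beside 60.6%, 68.8%, 64.6%, 68.3%, 57.6% and 68.3% of all tested genes. HT29 against LS174T gave 6 by library totals and 5 between the 3D groups. Leaving out 1 library gave 3 to 3, 11 to 12, 3 to 4, 7 to 8, 3 to 3 and 2 to 3 in the same order. The lowest level of these genes was 1.45 CPM, above the floor of 3 counts. Counting error still adds to the spread of low genes such as FANCB, with 44 counts in 1 LS513 3D library. The 3 libraries a group also limit the precision of each fold change.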
